A study of Mus musculus with 24 samples.

Results

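The collagen genes were taken as every row of the deposited expression table whose symbol consists of Col, a type number, the letter a and a chain number, which gave 44 of the 49452 genes listed. They were described as 11 fibrillar collagens, 6 basement membrane collagens and 27 others. The others held 6 beaded filament collagens, 9 fibril-associated collagens with interrupted helices (FACIT), 2 multiplexins, 3 short chain network collagens, 1 anchoring fibril collagen, 4 transmembrane collagens and 2 without a clear class. RNA had been sequenced from stromal vascular fraction (SVF) cells of male C57BL/6 mice aged 6 to 8 weeks. These are the cells, adipocyte precursors among them, that are collected after fat tissue is digested. The cells came from interscapular brown adipose tissue (BAT) or from epididymal fat, the visceral white depot (vWAT). They were nucleofected with a non-targeting control siRNA (siCtrl) or an siRNA against the long intergenic non-coding RNA *H19* (siH19), and sampled on day 0 (d0) or on day 3 of differentiation (d3). Each of the 8 groups of depot, siRNA and day held 3 libraries, 24 in all.

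Differentiation was induced with insulin, dexamethasone, rosiglitazone and IBMX, and in BAT cells with indomethacin and triiodothyronine. The labels do not make clear whether BAT cells received both mixes. BAT cells were afterwards kept in triiodothyronine and vWAT cells in rosiglitazone. Depot, medium and the series in which the libraries were numbered therefore cannot be told apart. BAT from several animals was pooled where cells were scarce. The labels do not say whether replicates came from separate isolations, so that p-values measure the spread between these libraries, which may be technical.

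Collagens are extracellular proteins in which 3 chains wind into a triple helix. Fibrillar collagens form the banded fibrils that give connective tissue its tensile strength, type IV collagens form the sheet of the basement membrane, and type VI collagens form beaded filaments between fibrils and basement membranes. Precursor cells of fat make a matrix rich in fibrillar collagen. A mature adipocyte is wrapped in a basement membrane, and its type VI collagen is known to restrain the growth of the cell.

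Expression was given as FPKM, the fragments of a gene per unit of its length and of the library's total, a level per length that allows genes to be set side by side. Because FPKM are relative to each library's total, fewer cells of a type and less RNA per cell cannot be told apart. Differences were tested with limma on log2(FPKM + 1), leaving out genes that did not reach 1 FPKM in 3 or more libraries of the comparison. A gene that stayed under 1 FPKM in 1 group of a pair passed only through the other, so that the filter fixed its direction. A gene was called higher or lower at a Benjamini-Hochberg adjusted p under 0.05 over all genes tested and a fold change of at least 1.3. Differences between 2 effects (interactions) needed the adjusted p only. The pseudocount of 1 in these log2 differences makes them smaller than the true ones where levels are low. Fold values are ratios of mean FPKM.

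The number of reads per library is unknown. Relative depth, read from the steps between low values, was 0.841 to 1 in BAT and 1.04 to 1.18 in vWAT, and each library had between 12311 and 13125 genes at 1 FPKM or more. Mean *H19* was lower in the siH19 libraries of each pair, at 4.36 against 130 FPKM in BAT d0 and 13.7 against 89.8 in BAT d3. In vWAT it was 1.21 against 11.7 at d0 and 0.528 against 8.59 at d3. Adipocyte markers were higher at d3 in both depots. The summed FPKM of 6 adipocyte genes was 2986 to 3252 in BAT siCtrl d0 and 36917 to 38605 in BAT siCtrl d3, and in vWAT siCtrl it was 3965 to 3976 and 18842 to 19823. The brown fat gene *Ucp1* averaged 12.1 FPKM in BAT siCtrl d3 and was listed at 0 in every vWAT siCtrl library. The 6 endothelial markers together stayed at 11.3 FPKM or less in every library.

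Of the 44 collagens, 19 had a mean of at least 10 FPKM in at least 1 group and 13 of at least 100. For 11 the highest group mean lay between 1 and 10, and for 14 it lay under 1. In all 8 groups, 21 collagens had a mean of at least 1. The filter on low values was passed by 30 collagens in at least 1 comparison, and 28 of these were called in at least 1 comparison of a pair of groups. The exceptions were *Col18a1* and *Col20a1*. The share of all genes tested that was called in at least 1 such pair was not counted, so the 28 show nothing particular to collagens. The 14 that passed in no comparison were *Col2a1*, *Col4a3*, *Col4a4*, *Col6a4*, *Col9a1*, *Col9a2*, *Col9a3*, *Col10a1*, *Col13a1*, *Col17a1*, *Col19a1*, *Col22a1*, *Col25a1* and *Col26a1*. Their highest group means ran from 0.0111 FPKM for *Col9a1* to 0.701 for *Col9a3*. The list includes cartilage chains such as *Col2a1*, *Col9a1* and *Col10a1*, and the epidermal anchor *Col17a1*.

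**Figure D1:**
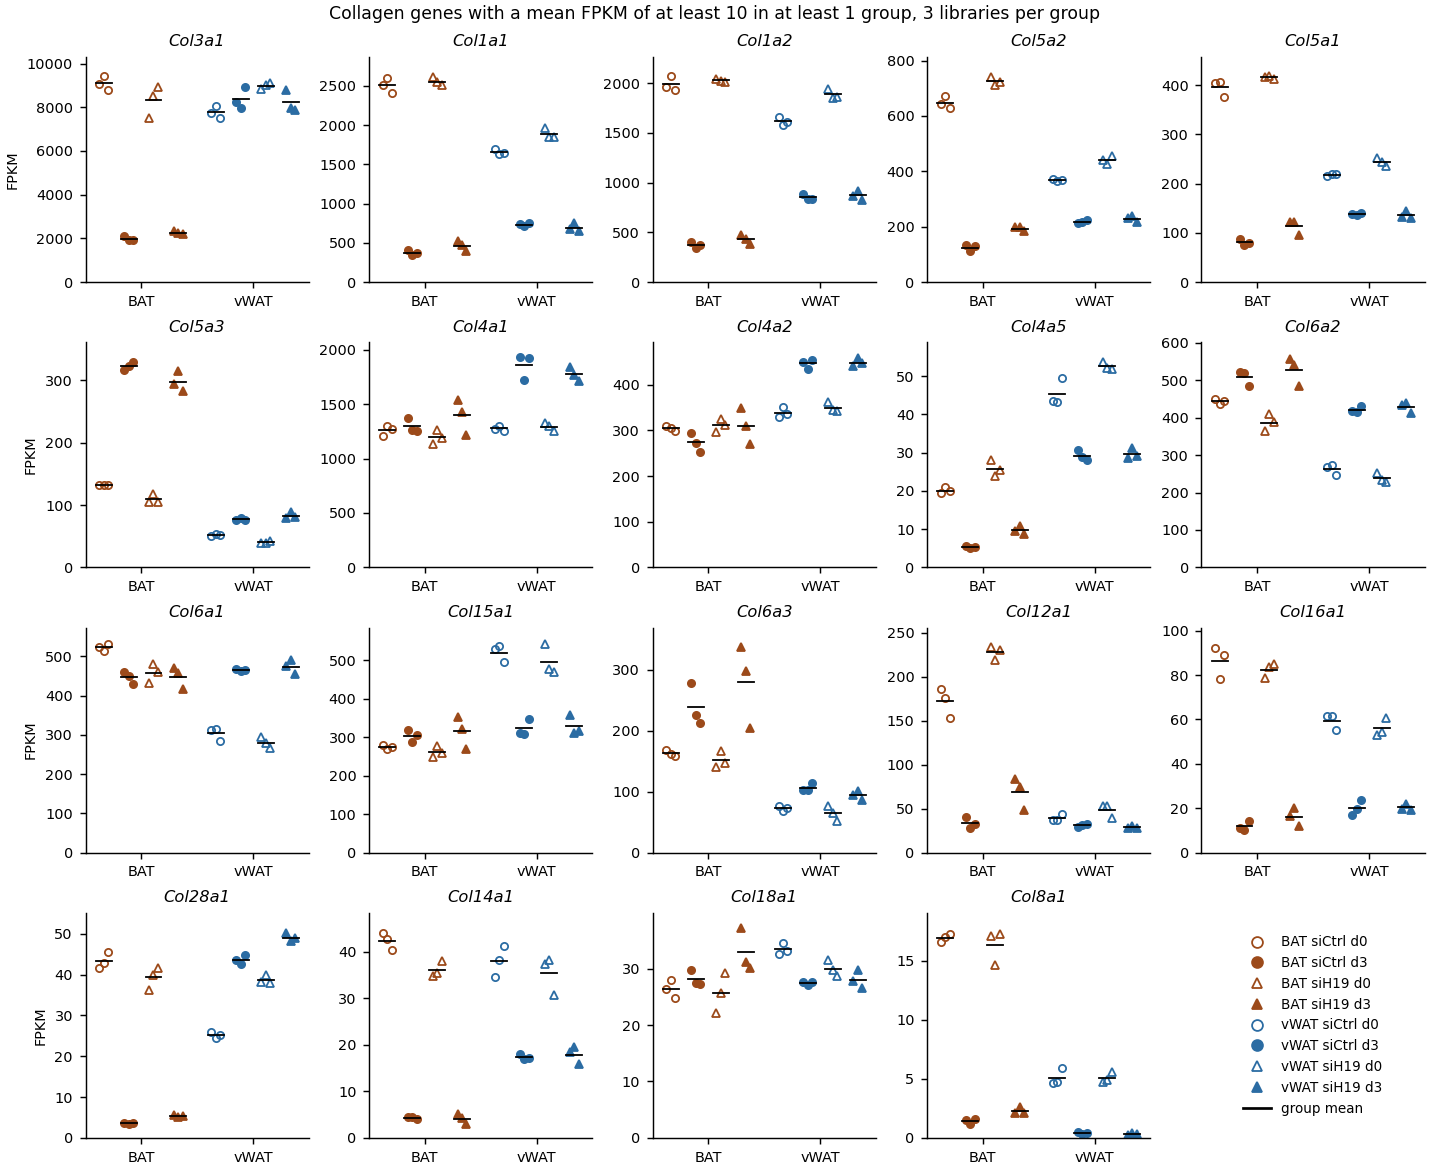
FPKM of the 19 collagens with a group mean of at least 10 (linear axes that start at 0), in each of the 8 groups of depot, siRNA and day. Points are libraries and bars are means of 3. *Col3a1* lay highest in every group, and *Col28a1* fell from d0 to d3 in BAT (43.2 to 3.58) while it rose in vWAT (25.2 to 43.6).

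The genes lie on 15 chromosomes, and 15 of them sit within 100 kb of another collagen, in 8 neighbouring pairs. *Col3a1* and *Col5a2* stand tail to tail on chromosome 1 with 24.6 kb between them. *Col4a1* and *Col4a2* stand head to head on chromosome 8 and their models share 22 bases at the start. *Col4a6* and *Col4a5* stand head to head on chromosome X, 1.3 kb apart, and *Col6a2* and *Col6a1* follow each other on chromosome 10, 85.2 kb apart. Exons of 13 collagens overlap those of another gene. The labels name a library kit that keeps strand and the study's methods one without that mark, and whether the counting used strand is not given in the sources used here. Reads in such exons, antisense ones included, may therefore be shared between genes. Inside *Col3a1*, on the same strand, lies the model *Gm47302* of 141 bases, which averaged 10418 FPKM in BAT siCtrl d0, 2165 in BAT siCtrl d3 and 1557 in BAT siH19 d3.

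The 100 bases before the RefSeq start of 4 collagens are shown, since the results below turn on them. *Col3a1* and *Col28a1* fell in BAT and were not lower in vWAT at d3, and *Col5a1* and *Col5a3* encode chains of the same collagen that moved in opposite directions. Coordinates are on GRCm38.p6, and capitals mark the GC box (GGGCGG on either strand).
Col3a1, chr1:45311438-45311537, plus strand: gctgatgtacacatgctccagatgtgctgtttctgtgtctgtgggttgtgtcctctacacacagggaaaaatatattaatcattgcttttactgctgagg
Col28a1, chr6:8192618-8192717, minus strand: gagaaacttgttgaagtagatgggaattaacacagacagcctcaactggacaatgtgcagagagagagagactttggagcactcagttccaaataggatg
Col5a1, chr2:27886325-27886424, plus strand: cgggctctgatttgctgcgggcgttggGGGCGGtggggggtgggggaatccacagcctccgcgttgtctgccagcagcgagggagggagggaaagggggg
Col5a3, chr9:20815068-20815167, minus strand: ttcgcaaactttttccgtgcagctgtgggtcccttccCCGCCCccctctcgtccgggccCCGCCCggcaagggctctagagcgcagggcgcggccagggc

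GC made up 43% and 44% of the windows of *Col3a1* and *Col28a1*, which held no GC box, and 71% and 72% of those of *Col5a1* and *Col5a3*. The RefSeq table had entries for 35 collagens with 38 start sites. In the 250 bases before the start, searched on both strands, GGGCGG was present in 57.9% of the collagen windows and in 32.7% of all 32851 windows. CCAAT was present in 34.2% and 33.9%, TATAAA in 13.2% and 12.4%, and the AP-1 motif TGACTCA in 2.63% and 4.46%. These are matches of letters and not evidence that a factor binds.

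Between d0 and d3 most fibrillar collagens of BAT siCtrl cells fell, while the main basement membrane and type VI chains stayed within 1.47-fold of their starting level. Of 26 collagens tested, 15 fell and 4 rose between d0 and d3, where 35.3% of all genes tested fell and 29.9% rose. *Col8a2* and *Col24a1* reached 1 FPKM at d0 only, so that the filter fixed their direction. By class, 7 of 10 fibrillar collagens fell and 2 rose, 1 of 3 basement membrane collagens fell, and 7 of 13 others fell and 2 rose. The median log2 difference of the collagens was -0.99, against -0.10 over all genes tested.

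The summed FPKM of the fibrillar collagens was 14777 ± 509 (SD, n = 3) in BAT siCtrl d0 and 3276 ± 174 in BAT siCtrl d3, 4.51-fold lower. The basement membrane sum was 1583 ± 46.8 and 1574 ± 86.8, and that of the others was 1805 ± 33.9 and 1593 ± 79.7. The 44 collagens together were 2.53% of the summed FPKM of a library at d0 and 0.791% at d3. Fibrillar chains thus made up most of the collagen signal before differentiation, and the difference at d3 lay almost wholly within them.

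**Figure D2:**
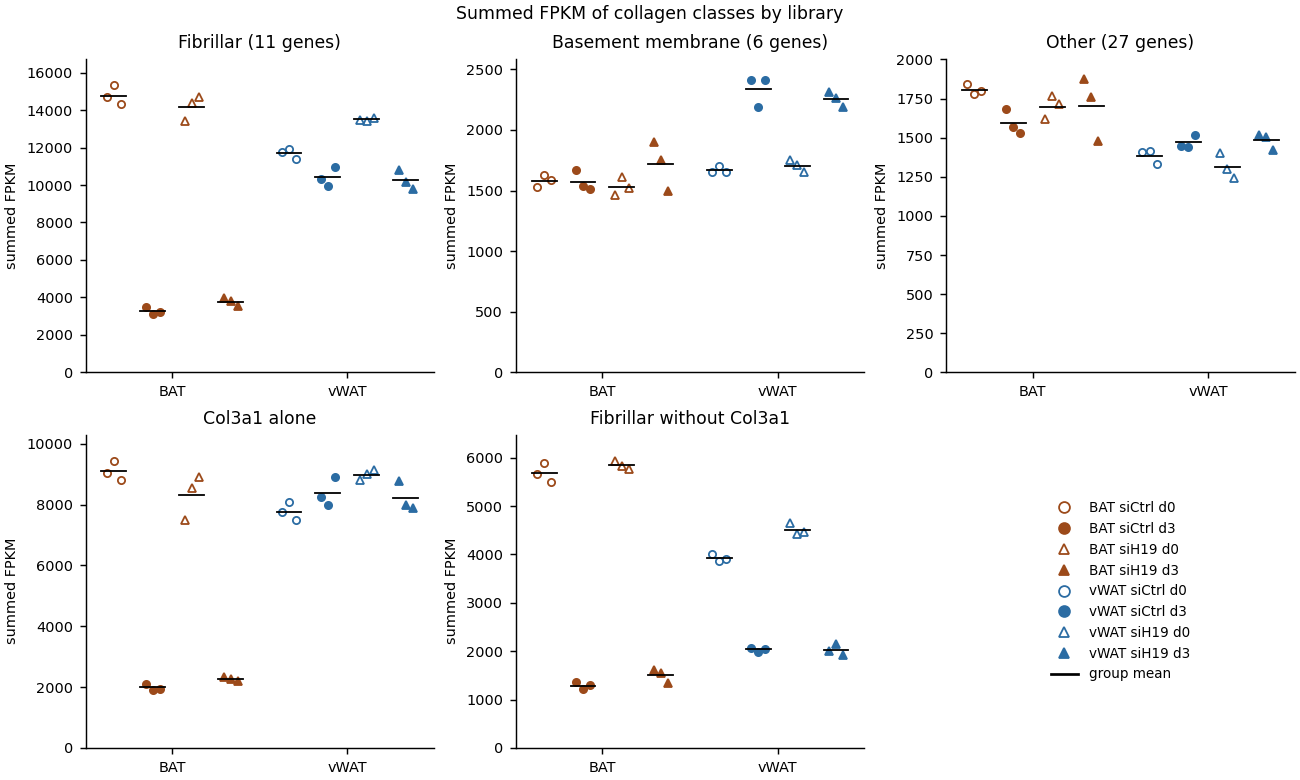
Summed FPKM of each collagen class, of *Col3a1* alone and of the fibrillar class without it, in the 8 groups (points are libraries, bars are means of 3, axes start at 0). The fibrillar sum was lower at d3 in BAT, from 14777 to 3276 in siCtrl cells, and it was 9810 or more in every vWAT library, most of it from *Col3a1*.

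*Col3a1*, the single chain of type III collagen, was the most abundant collagen of every group. Its FPKM were 9045, 9430 and 8810 in the BAT siCtrl d0 libraries and 2109, 1919 and 1936 at d3, without overlap. The same held for 43.2% of all genes tested, with every d3 library below every d0 library. *Col3a1* was called lower. It fell by 2.19 on the log2 scale (SE 0.049, limma adjusted p = 8.8e-08), or 4.57-fold. *Gm47302*, whose exon lies within it, had a lower mean at d3 as well.

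*Col1a1* and *Col1a2* encode the 2 chains of type I collagen, the main fibril of skin and bone. *Col1a1* was at 2515, 2600 and 2414 FPKM at d0 and at 411, 341 and 369 at d3. *Col1a2* was at 1963, 2067 and 1933 and then at 403, 347 and 377. They fell by 2.75 (SE 0.071) and 2.40 (SE 0.060) on the log2 scale, 6.71-fold and 5.29-fold, with adjusted p-values of 1.5e-07 and 1.3e-07. The ratio of *Col1a1* to *Col1a2* was 1.26 at d0 and 0.995 at d3.

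Type V collagen sits in the core of type I fibrils and limits their width. Its main chains fell with type I. *Col5a2* went from 644, 671 and 628 FPKM to 132, 111 and 129, and *Col5a1* from 405, 406 and 376 to 88.2, 76.3 and 78.8. The log2 differences were -2.37 (SE 0.070) and -2.28 (SE 0.064), with adjusted p-values of 2.5e-07 and 2.1e-07. The antisense model *Gm13372* overlaps an exon of *Col5a1* and went from a mean of 46.2 to 9.73 FPKM.

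*Col5a3*, the third type V chain, went the other way. It was at 132, 132 and 133 FPKM in BAT siCtrl d0 and at 317, 324 and 329 in BAT siCtrl d3, a rise of 1.28 on the log2 scale (SE 0.031, adjusted p = 1.2e-07) and 2.44-fold. The ratio of *Col5a3* to *Col5a1* was 0.325, 0.325 and 0.353 in the d0 libraries and 3.59, 4.24 and 4.18 in the d3 libraries. So *Col5a3* was the lowest of the type V chains at d0 and the highest at d3. *Col11a2*, a chain of the related type XI collagen, also rose, from 1.17, 1.16 and 1.63 FPKM to 4.598, 8.23 and 4.99.

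Of the low fibrillar chains, *Col27a1* fell from a mean of 5.21 to 1.80 FPKM and *Col24a1* from 1.32 to 0.405. *Col11a1*, with means of 1.33 and 1.31, was not called (log2 difference -0.01, SE 0.12, adjusted p = 0.96). *Col2a1*, the cartilage fibril, did not pass the filter.

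The chains of the ubiquitous basement membrane network were not called in BAT. *Col4a1* was at 1203, 1299 and 1271 FPKM at d0 and at 1372, 1261 and 1251 at d3 (log2 difference 0.04, SE 0.050, adjusted p = 0.47). *Col4a2* was at 310, 305 and 298 and then at 295, 273 and 253, a log2 difference of -0.15 (SE 0.059, adjusted p = 0.047) that stayed under 1.3-fold. *Col4a5*, a chain of the specialised networks found in kidney and smooth muscle, fell from 19.4, 20.99 and 19.9 FPKM to 5.58, 4.94 and 5.45, by 1.74 on the log2 scale (SE 0.070, adjusted p = 1.1e-06). The ratio of *Col4a5* to *Col4a1* was 0.0160 at d0 and 0.00411 at d3.

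Type VI collagen, built from *Col6a1*, *Col6a2* and a longer chain that is most often *Col6a3*, showed no such fall. *Col6a3* rose from 168, 161 and 159 FPKM to 278, 225 and 213 (log2 difference 0.54, SE 0.097, adjusted p = 0.0020). *Col6a1* had means of 524 and 447 FPKM and *Col6a2* of 444 and 508, with log2 differences of -0.23 and 0.19 that were both under 1.3-fold. The ratio of *Col6a3* to *Col6a1* was 0.310 at d0 and 0.533 at d3. The multiplexins *Col15a1* and *Col18a1*, which sit at basement membranes, were not called either, with d0 and d3 means of 275 and 304 FPKM and of 26.4 and 28.2 FPKM.

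Among the collagens tested, the 4 lowest ratios of d3 to d0 belonged to collagens outside the fibrillar and basement membrane classes. *Col28a1*, a type VI-like collagen known from peripheral nerve, went from 41.5, 42.8 and 45.4 FPKM to 3.73, 3.35 and 3.66, 12.1-fold lower. *Col8a1*, a short chain collagen of vessel walls, had means of 17.0 and 1.46 FPKM, and the FACIT *Col14a1* of 42.3 and 4.32. The FACIT *Col16a1* had means of 86.5 and 11.8 FPKM. *Col12a1*, a FACIT of dense connective tissue, went from 186, 176 and 153 FPKM to 41.0, 27.9 and 32.8. All 5 were called, with log2 differences from -3.27 for *Col28a1* to -2.32 for *Col12a1* and adjusted p-values up to 8.4e-06. The low *Col8a2* (means 2.17 and 0.400 FPKM) and the transmembrane *Col23a1* (2.46 and 0.951) fell too. *Col7a1*, the anchoring fibril collagen, rose from 4.15, 3.56 and 4.94 FPKM to 6.87, 6.77 and 8.45.

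Of a list of 28 genes in the table that fold, modify, cut or cross-link collagen, 26 were tested in this comparison and all 26 fell, with a median log2 difference of -1.62. Over all genes tested, 35.3% fell and 29.9% rose, with a median of -0.10. *Serpinh1*, the collagen chaperone, went from a mean of 1922 to 493 FPKM, the lysyl hydroxylase *Plod2* from 139 to 15.6 and the cross-linking oxidase *Lox* from 2072 to 270. Of the collagen receptors, 6 of 6 tested fell, among them the fibrillar collagen integrin *Itga11*, from 30.8 to 1.68 FPKM. All 14 fibril partners fell, with a median of -1.88, and of 13 basement membrane partners 9 fell and 2 rose. The laminin *Lama4*, which lines adipocytes, was not called (means 69.2 and 73.3 FPKM). The summed FPKM of 6 smooth muscle and pericyte markers was 3262 to 3574 in BAT siCtrl d0 and 435 to 603 at d3, and that of 6 preadipocyte markers was 715 to 794 and 277 to 316. The part of these cell states in the collagen differences was not tested.

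In vWAT siCtrl cells the collagens divided in another way. Type I and the main type V chains fell by less than in BAT, *Col3a1* was not called, and the abundant type IV and type VI chains *Col4a1*, *Col4a2*, *Col6a1*, *Col6a2* and *Col6a3* rose while the scarcer *Col4a5*, *Col4a6*, *Col6a5* and *Col6a6* fell. Of 28 collagens tested 13 fell and 9 rose, where 23.9% of all genes tested fell and 26.3% rose. *Col6a6* and *Col8a1* reached 1 FPKM at d0 only and *Col11a1* at d3 only, so that the filter fixed their direction. By class, 5 of 10 fibrillar collagens fell and 3 rose, 2 of 4 basement membrane collagens fell and 2 rose, and 6 of 14 others fell and 4 rose. The median log2 difference was -0.34 for the collagens and 0.01 over all genes tested.

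*Col3a1* was at 7744, 8071 and 7488 FPKM in the vWAT siCtrl d0 libraries and at 8260, 7969 and 8904 at d3, which overlap (log2 difference 0.11, SE 0.051, adjusted p = 0.10). *Col1a1* went from 1699, 1633 and 1648 FPKM to 740, 711 and 748, and *Col1a2* from 1655, 1583 and 1607 to 882, 835 and 840. Both fell, by 1.18 (SE 0.033) and 0.92 (SE 0.035) on the log2 scale. The ratio of *Col3a1* to *Col1a1* was therefore 4.68 at d0 and 11.4 at d3, against 3.62 and 5.33 in BAT. *Col5a2* fell from a mean of 369 to 218 FPKM and *Col5a1* from 218 to 138. Without *Col3a1*, the fibrillar sum was 3927 at d0 and 2037 at d3, 1.93-fold lower, and with it the sums were 11695 ± 276 and 10415 ± 499.

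*Col5a3* rose in vWAT as well, from 49.6, 53.9 and 51.5 FPKM to 76.0, 78.9 and 76.5 (log2 difference 0.57, SE 0.045, adjusted p = 4.9e-05). The ratio of *Col5a3* to *Col5a1* was 0.237 at d0 and 0.559 at d3, so that *Col5a1* remained the more abundant chain. *Col11a1* rose from 0.518, 0.569 and 0.729 FPKM to 5.53, 3.52 and 3.74, by 1.70 on the log2 scale. *Col11a2* was called higher (log2 difference 0.58, SE 0.21, adjusted p = 0.048), a call that was lost without vWAT siCtrl replicate 1 or 3 of either day, with adjusted p-values from 0.0578 to 0.133. *Col24a1* fell from a mean of 3.31 to 1.47 FPKM. *Col27a1* had means of 6.11 and 8.21 and a log2 difference of 0.37 that fell short of 1.3-fold on this scale.

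*Col4a1* was at 1273, 1297 and 1257 FPKM at d0 and at 1929, 1718 and 1928 at d3 in vWAT, and *Col4a2* at 328, 350 and 336 and then at 450, 435 and 455. They rose by 0.54 (SE 0.051) and 0.40 (SE 0.037) on the log2 scale, with adjusted p-values of 0.00012 and 0.00011. The less common chains *Col4a5* and *Col4a6*, which stand head to head on chromosome X, fell. *Col4a5* went from 43.4, 43.3 and 49.6 FPKM to 30.6, 28.8 and 28.1, and *Col4a6* from 7.04, 6.87 and 7.53 to 3.24, 3.13 and 2.73. The basement membrane sum was 1667 ± 27.2 at d0 and 2338 ± 131 at d3.

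All 3 main type VI chains rose in vWAT. *Col6a1* had means of 305 and 466 FPKM (log2 difference 0.61), *Col6a2* of 263 and 421 (0.68) and *Col6a3* of 72.7 and 106 (0.54). *Col6a5* and *Col6a6*, alternatives to that longer chain encoded side by side on chromosome 9, fell. *Col6a5* was at 8.63, 8.92 and 9.55 FPKM at d0 and at 1.79, 2.18 and 2.62 at d3, and *Col6a6* at 2.06, 2.47 and 2.17 and then at 0.632, 0.382 and 0.362. In no BAT library did *Col6a5* pass 0.0761 or *Col6a6* 0.0696 FPKM. The 6 mesothelial markers summed to 195 to 224 FPKM in vWAT siCtrl d0 and to 53.8 to 62.4 at d3, and to at most 10.03 in every BAT library. The part of mesothelial cells in *Col4a6*, *Col6a5* and *Col6a6* was not tested.

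*Col28a1* rose in vWAT, from 26.0, 24.5 and 25.2 FPKM to 43.5, 42.5 and 44.7 (log2 difference 0.76, SE 0.046, adjusted p = 1.5e-05). *Col8a1* fell from a mean of 5.09 to 0.389 FPKM, *Col16a1* from 59.5 to 20.0 and *Col14a1* from 38.0 to 17.4. *Col15a1*, which was not called in BAT, fell from 529, 536 and 495 FPKM to 312, 308 and 348. *Col12a1* (39.5 and 31.1 FPKM), *Col18a1* (33.4 and 27.4), *Col8a2* (3.34 and 2.39) and *Col7a1* (5.75 and 6.32) were not called.

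Of the collagen-modifying genes 16 of 27 tested fell in vWAT and 1 rose, with a median log2 difference of -0.46. Over all genes tested, 23.9% fell and 26.3% rose. The depot by day interaction of the same 27 collagen-modifying genes was called lower in BAT for 25 and higher for 2, with a median of -1.14. For all genes tested it was called lower for 28.1% and higher for 24.9%. Of 14 fibril partners 8 fell and 1 rose in vWAT. *Serpinh1* went from a mean of 1673 to 915 FPKM and *Lox* from 836 to 542. The procollagen peptidase *Adamts3* rose from 1.83 to 4.64. Of 9 collagen receptors 8 fell and 1 rose, and of 14 basement membrane partners 3 fell and 1 rose. The summed FPKM of 6 preadipocyte markers was 548 to 605 in vWAT siCtrl d0 and 664 to 744 at d3, while 4 of 6 fell and 1 rose. That of 6 smooth muscle and pericyte markers was 1446 to 1661 and 954 to 1169, with 3 of 5 tested lower and 1 higher. The part of these cell states in the vWAT collagen differences was not tested.

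**Figure D3:**
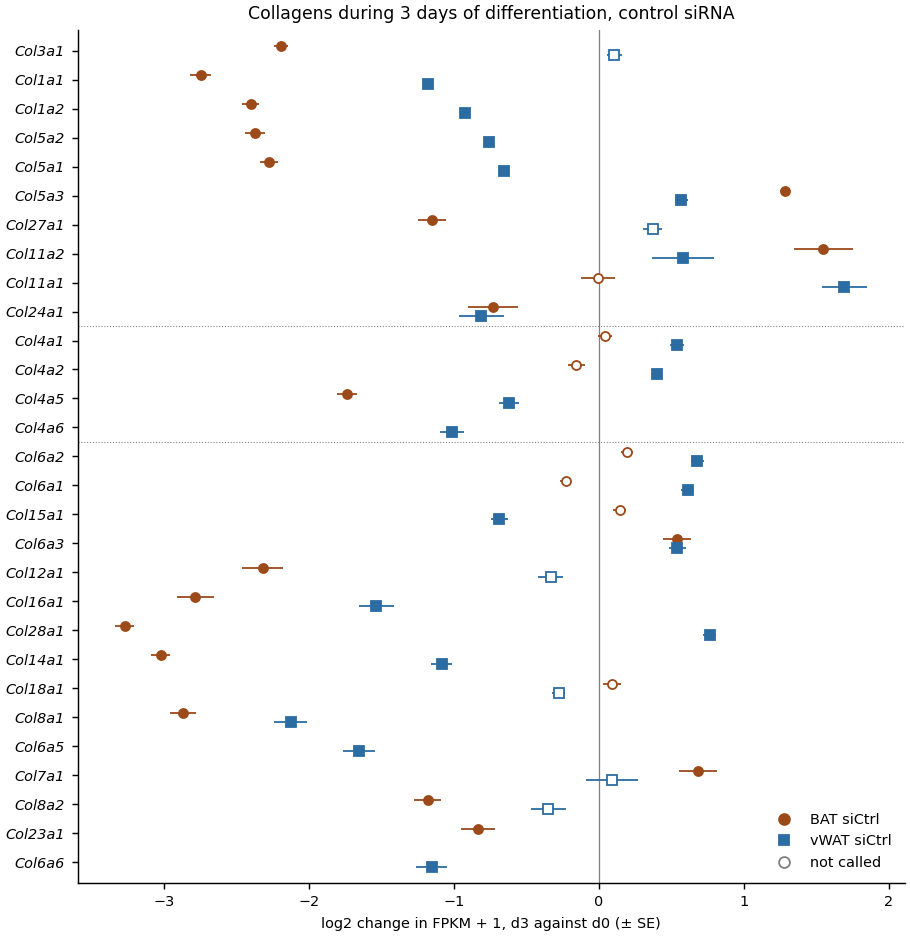
Log2 difference between d3 and d0 on the log2(FPKM + 1) scale for each tested collagen in siCtrl cells, with BAT as circles and vWAT as squares. Bars are 1 SE from limma and filled symbols passed the adjusted p and 1.3-fold. *Col28a1* lay at -3.27 in BAT and 0.76 in vWAT, and *Col5a3* lay above 0 in both.

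The difference between the depots was tested as an interaction of depot and day over the 12 siCtrl libraries. Of 30 collagens tested, 18 were called with a lower d3 to d0 difference in BAT and 7 with a higher one, where 28.1% and 24.9% of all genes tested were called. Of 10 fibrillar collagens 7 were lower and 2 higher. The largest value was that of *Col28a1* (-4.04, SE 0.071, adjusted p = 9.6e-11), followed by *Col3a1* (-2.30, SE 0.072, adjusted p = 3.2e-09). *Col12a1*, *Col14a1*, *Col11a1*, *Col5a1*, *Col5a2*, *Col1a1*, *Col27a1*, *Col1a2*, *Col16a1* and *Col4a5* lay between -1.99 and -1.12. *Col6a1*, *Col8a2*, *Col8a1*, *Col4a2*, *Col4a1* and *Col6a2* lay between -0.84 and -0.49.

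The 7 higher values belonged to *Col5a3* (0.71, SE 0.049), *Col15a1* (0.83), *Col18a1* (0.37), *Col11a2* (0.97), *Col4a6* (0.85), *Col6a6* (1.07) and *Col6a5* (1.60). The latter 3 passed the filter only through vWAT, and BAT was near 0 FPKM on both days, so that with a pseudocount of 1 their values restate the fall in vWAT and their sign is not a result. With a pseudocount of 0.1 in place of 1, *Col4a6* had an interaction of 0.34 (adjusted p = 0.33) and *Col8a1* one of -0.04 (adjusted p = 0.89), and neither was called. By mean FPKM *Col8a1* fell 11.6-fold in BAT and 13.1-fold in vWAT, which is the opposite order. *Col11a2* lost its call in 6 of 12 fits that left out 1 library, BAT siCtrl d0 replicate 1 or 2, BAT siCtrl d3 replicate 2, vWAT siCtrl d0 replicate 1 or 2 or vWAT siCtrl d3 replicate 2, with adjusted p-values from 0.0542 to 0.0634. *Col6a3* had a log2 difference of 0.54 in each depot, and its interaction was not called (SE 0.12).

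**Figure D4:**
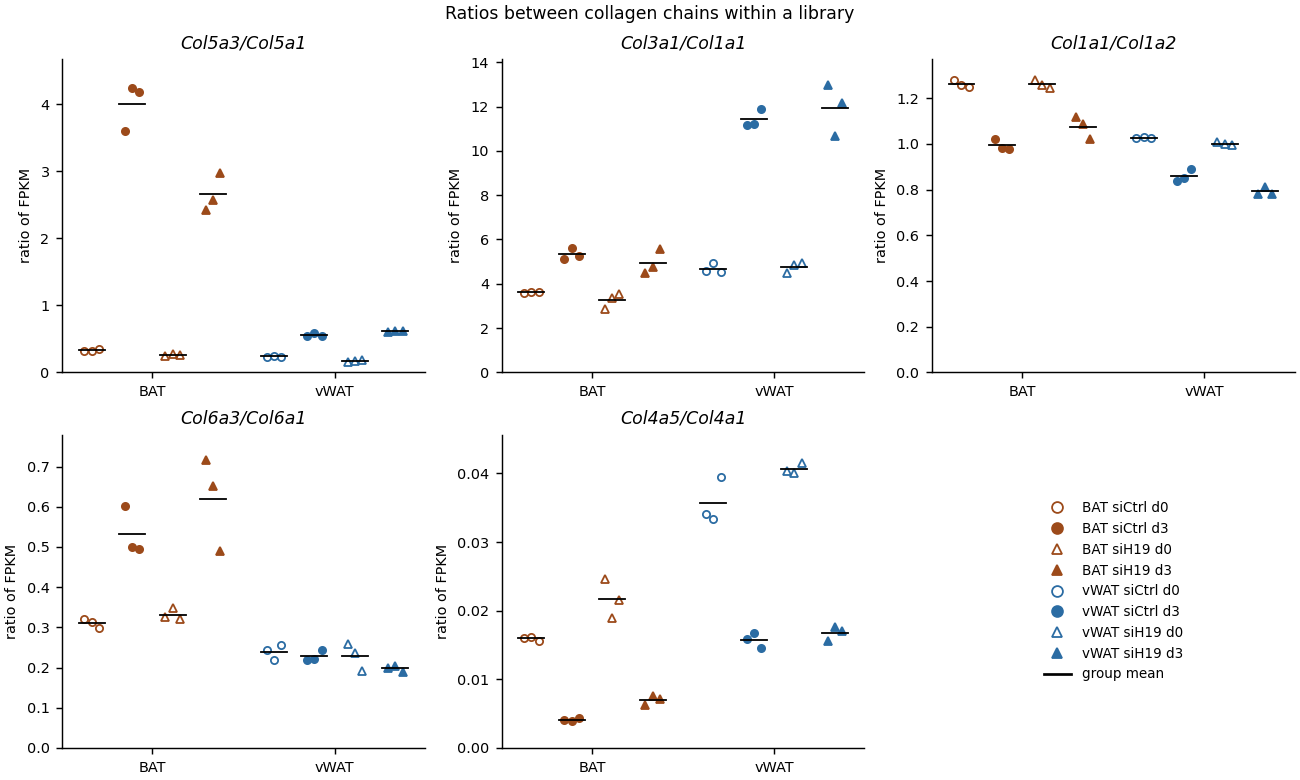
Ratios of FPKM, a level per length, between chains in each library, by group, with bars for the mean of 3. The ratio of *Col5a3* to *Col5a1* was 0.335 in BAT siCtrl d0, 4.01 in BAT siCtrl d3 and 2.65 in BAT siH19 d3, and in vWAT siCtrl it was 0.237 and 0.559.

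Before differentiation, BAT cells had more of 5 of 10 fibrillar collagens tested than vWAT cells and less of 2. Among the 5 was *Col11a1*, which passed the filter only through BAT. BAT cells also had more of the main type VI chains *Col6a1*, *Col6a2* and *Col6a3* and of the FACITs *Col12a1* and *Col16a1*, and less of the type IV chain *Col4a5*. *Col6a5*, *Col6a6* and *Col4a6* were called lower too, but passed the filter only through vWAT. Of 29 collagens tested between BAT and vWAT siCtrl d0, 13 were higher and 8 lower in BAT, where 10.2% of all genes tested were higher and 21.0% lower. Among the collagens called, *Col4a6*, *Col6a5* and *Col6a6* reached 1 FPKM only in vWAT and *Col11a1* and *Col23a1* only in BAT. The filter fixed their direction, so it is not a result. Rescaling the libraries by median ratios shifted the median of all genes by 0.11 at d0 and by 0.12 at d3 on the log2 scale. The split over all genes was then 1825 higher and 1974 lower at d0 instead of 1343 and 2753, and that of the collagens 14 and 7. The depot differences below are therefore to be read against that shift.

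*Col12a1* stood 4.35-fold higher in BAT, at means of 172 and 39.5 FPKM (log2 difference 2.09, SE 0.097, adjusted p = 1.2e-05). *Col8a1* was 3.33-fold, *Col23a1* 3.25-fold, *Col5a3* 2.56-fold, *Col6a3* 2.24-fold and *Col11a1* 2.198-fold higher. *Col1a1*, *Col5a1*, *Col5a2*, *Col6a1*, *Col6a2*, *Col16a1* and *Col28a1* were 1.45-fold to 1.82-fold higher. *Col3a1*, at means of 9095 and 7768 FPKM, and *Col1a2*, at 1988 and 1615, stayed under 1.3-fold.

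Lower in BAT were *Col6a5*, at a mean of 0.0420 against 9.03 FPKM, *Col6a6*, at 0.0566 against 2.24, *Col4a6*, at 0.187 against 7.15, and *Col4a5*, at 20.1 against 45.4. *Col15a1* was at 275 against 520 FPKM and *Col24a1* at 1.32 against 3.31. *Col11a2* and *Col8a2* were called lower at log2 differences of -0.67 and -0.44. *Col11a2* lost its call without BAT siCtrl d0 replicate 1 or 2 or vWAT siCtrl d0 replicate 1 or 2 (adjusted p from 0.0819 to 0.0912). *Col8a2* lost its call without BAT siCtrl d0 replicate 1 or 2 or vWAT siCtrl d0 replicate 3, with log2 differences between -0.46 and -0.33 in those fits. *Col4a1*, at 1258 and 1276 FPKM, was nearly equal in the depots (log2 difference -0.02, SE 0.038, adjusted p = 0.67).

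Markers of other cell types differed between the depots at d0 too. Of 6 smooth muscle and pericyte markers 5 were higher in BAT, with sums of 3262 to 3574 FPKM against 1446 to 1661 in vWAT. Of 4 skeletal muscle markers tested 3 were higher and 1 lower, with overlapping sums of 33.8 to 56.1 and 30.1 to 39.0 FPKM. Of 6 leukocyte markers 5 were lower in BAT (26.5 to 30.9 against 66.2 to 75.7 FPKM), and so were all 6 mesothelial markers (5.14 to 5.92 against 195 to 224), of which *Upk1b* and *Upk3b* were listed at 0 in every BAT siCtrl d0 library. Of 6 preadipocyte markers 2 were higher and 3 lower. The part of these cell types in the depot differences was not tested.

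At d3 the order was turned for part of the collagens. Of the 13 that were higher in BAT at d0, 6 were lower at d3 (*Col1a1*, *Col5a1*, *Col5a2*, *Col11a1*, *Col16a1* and *Col28a1*), 3 were higher again, 3 were not called and *Col23a1* was not tested. The filter fixed the direction of *Col11a1* and *Col23a1* at d0 and of *Col8a1*, among those higher again, at d3. How many of all genes higher in BAT at d0 were lower at d3 was not counted, so the 6 have no such share beside them. Of the 8 that were lower in BAT at d0, 5 were lower again (*Col4a5*, *Col4a6*, *Col6a5*, *Col8a2* and *Col24a1*). Among these only *Col4a5* reached 1 FPKM in both depots at d3, so the filter left only its direction free. Of 28 collagens tested, 17 were lower and 3 higher in BAT siCtrl than in vWAT siCtrl, where 32.1% of all genes tested were lower and 16.5% higher. After rescaling, 17 were lower and 4 higher, with 3377 and 2792 over all genes instead of 4216 and 2162. All 4 type IV chains tested were lower in BAT, and so were 8 of 10 fibrillar chains. These counts include *Col4a6* and *Col24a1*, whose direction the filter fixed. Among the collagens called, *Col4a6*, *Col6a5*, *Col8a2* and *Col24a1* reached 1 FPKM only in vWAT and *Col8a1* only in BAT. The filter fixed their direction, so it is not a result. *Col28a1* was 12.2-fold lower (log2 difference -3.28, SE 0.061), *Col3a1* 4.21-fold, *Col14a1* 4.02-fold and *Col4a5* 5.48-fold. *Col1a1*, *Col1a2*, *Col5a1* and *Col5a2* were 1.70-fold to 2.27-fold lower, and *Col27a1*, *Col11a1*, *Col8a2*, *Col16a1* and *Col24a1* 1.70-fold to 5.97-fold. *Col4a1* and *Col4a2* were 1.44-fold and 1.63-fold lower. *Col4a6* averaged 0.0567 FPKM in BAT against 3.04 in vWAT, and *Col6a5* 0.00192 against 2.196.

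The 3 collagens that were higher in BAT at d3 were *Col5a3*, at 323 against 77.1 FPKM (log2 difference 2.05, SE 0.034, adjusted p = 1.6e-07), *Col6a3*, at 239 against 106, and *Col8a1*, at 1.46 against 0.389. The same 3 were higher in BAT at d0. At d3, of 5 smooth muscle and pericyte markers tested 4 were lower in BAT and 1 higher, 5 of 5 leukocyte and 5 of 6 mesothelial markers were lower, and all 6 adipocyte and all 6 brown adipocyte markers were higher. Their part in these differences was not tested. *Col12a1*, which had differed most at d0 among the collagens higher in BAT, had means of 33.9 and 31.1 FPKM at d3 (log2 difference 0.10, adjusted p = 0.53). *Col20a1*, a low FACIT, had means of 0.879 and 1.13 and was not called.

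Silencing of *H19* was compared with siCtrl within each depot and day, the comparison for which the study was made. In BAT d3, 6 of 23 collagens tested were higher and 1 lower in siH19 cells, where 6.39% of all genes tested were higher and 2.18% lower. After rescaling by median ratios, 5 collagens were higher and 1 lower, with 629 and 410 over all genes instead of 799 and 272. The 6 were the fibrillar *Col5a1*, *Col5a2* and *Col11a1*, the basement membrane chain *Col4a5*, the FACIT *Col12a1* and the nerve collagen *Col28a1*. *Col7a1* was the lower one. The median log2 difference was 0.19 for the collagens and 0.05 over all genes tested.

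*Col5a2* was at 132, 111 and 129 FPKM in BAT siCtrl d3 and at 197, 197 and 183 in BAT siH19 d3. It rose by 0.63 on the log2 scale (SE 0.073, limma adjusted p = 0.0040), 1.55-fold. *Col4a5* was at 5.58, 4.94 and 5.45 FPKM with siCtrl and at 9.63, 10.8 and 8.70 with siH19 (log2 difference 0.76, SE 0.096, adjusted p = 0.0053). Neither pair of groups overlapped. Over all genes tested in BAT d3, 24.2% had every siH19 library above every siCtrl library. In both *Col5a2* and *Col4a5* the siH19 libraries lay between the levels of BAT siCtrl d3 and BAT siCtrl d0.

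*Col12a1* was at 41.0, 27.9 and 32.8 FPKM with siCtrl and at 83.6, 74.6 and 48.5 with siH19 (log2 difference 0.98, SE 0.22, adjusted p = 0.030). *Col5a1* was at 88.2, 76.3 and 78.8 and at 121, 123 and 95.3 (log2 difference 0.47, SE 0.11, adjusted p = 0.033). The groups did not overlap, but siH19 replicate 3 stood nearest to the controls in both genes. Both calls were lost without BAT siCtrl d3 replicate 2 or 3 or BAT siH19 d3 replicate 1 or 2, with adjusted p-values from 0.0781 to 0.0971 for *Col12a1* and from 0.0908 to 0.111 for *Col5a1*. The *Col5a1* call was also lost after rescaling (log2 difference 0.42, adjusted p = 0.0505).

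*Col28a1* was at 3.73, 3.35 and 3.66 FPKM with siCtrl and at 5.52, 5.11 and 5.25 with siH19 (log2 difference 0.46, SE 0.080, adjusted p = 0.013). Without BAT siCtrl d3 replicate 2 its adjusted p was 0.0545. *Col11a1* was at 1.18, 1.38 and 1.36 and at 2.76, 2.35 and 2.36 (log2 difference 0.60, SE 0.099, adjusted p = 0.011). *Col7a1* was at 6.87, 6.77 and 8.45 FPKM with siCtrl and at 3.33, 2.36 and 3.57 with siH19, a fall of 1.04 on the log2 scale (SE 0.15, adjusted p = 0.0065).

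The most abundant fibrils moved little. *Col3a1* was at 2109, 1919 and 1936 FPKM with siCtrl and at 2341, 2256 and 2191 with siH19, without overlap, a log2 difference of 0.19 (SE 0.047, adjusted p = 0.043) that stayed under 1.3-fold. *Gm47302* had a lower mean with siH19, at 1557 against 2165 FPKM, which is the opposite order. *Col1a1*, at 411, 341 and 369 and then at 524, 474 and 392, overlapped between groups (log2 difference 0.30, SE 0.12, adjusted p = 0.13), and so did *Col1a2*, with means of 375 and 430. *Col5a3* had means of 323 and 297 FPKM, and the ratio of *Col5a3* to *Col5a1* was 3.59, 4.24 and 4.18 with siCtrl and 2.42, 2.56 and 2.97 with siH19.

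*Col4a1* and *Col4a2* were not called, with means of 1295 and 1396 and of 274 and 310 FPKM. Among the type VI chains, *Col6a1* (447 and 448 FPKM), *Col6a2* (508 and 527) and *Col6a3* (239 and 280) were not called. The other collagens that were tested and not called were *Col8a1* (1.46 and 2.27 FPKM, adjusted p = 0.065), *Col14a1* (4.32 and 4.16), *Col15a1* (304 and 315), *Col16a1* (11.8 and 16.2), *Col18a1* (28.2 and 32.9), *Col27a1* (1.80 and 1.52) and *Col11a2* (5.94 and 4.001). The summed FPKM of the fibrillar collagens was 3767 ± 213 with siH19 and 3276 ± 174 with siCtrl.

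**Figure D5:**
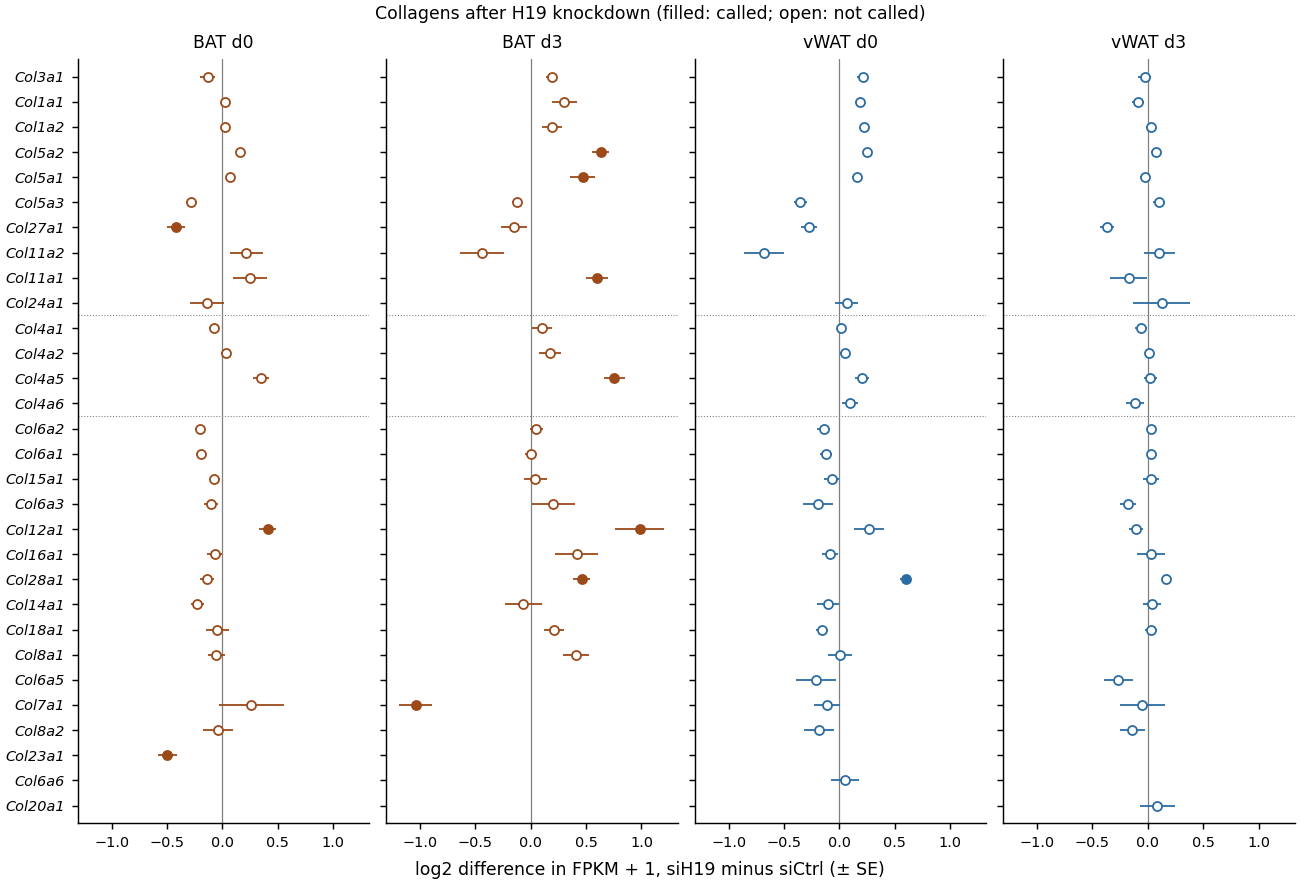
Log2 difference between siH19 and siCtrl on the log2(FPKM + 1) scale for each tested collagen, in 4 panels for BAT d0, BAT d3, vWAT d0 and vWAT d3. Bars are 1 SE from limma and filled symbols passed the adjusted p and 1.3-fold. Filled symbols number 3, 7, 1 and 0, and *Col12a1* (0.98) and *Col7a1* (-1.04) lie farthest from 0 in BAT d3.

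Of 23 genes tested in BAT d3 that process collagen, 15 were higher with siH19 and 0 lower, with a median log2 difference of 0.44. Over all genes tested, 6.39% were higher and 2.18% lower, with a median of 0.05. The counts of this list and of the receptor and partner lists below were not taken after rescaling. *Lox* had means of 563 FPKM with siH19 and 270 with siCtrl (log2 difference 1.06, SE 0.07, limma adjusted p = 0.0015), *Plod2* of 24.9 and 15.6 and *Serpinh1* of 668 and 493. The prolyl hydroxylase chains *P4ha1* and *P4ha3* and the chaperone partner *Fkbp10* were called too, at 0.43, 0.72 and 0.56 on the log2 scale. Of 6 collagen receptors 4 were higher, the discoidin receptor *Ddr1*, the integrin chains *Itga11* and *Itgb1* and the collagen uptake receptor *Mrc2*. Of 13 fibril partners 5 were higher, among them *Thbs1* (143 against 53.2 FPKM) and *Thbs2* (57.8 against 26.5), and of 13 basement membrane partners 3 were higher.

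Markers of cell state differed in the same libraries. The summed FPKM of 6 preadipocyte markers was 277 to 316 in BAT siCtrl d3 and 495 to 527 in BAT siH19 d3, with 3 of 4 tested markers higher. That of 6 smooth muscle and pericyte markers was 435 to 603 and 1033 to 1245, with 3 of 4 tested higher. The sum of 6 brown adipocyte markers was 770 to 860 and 469 to 533, with 5 of 6 lower. The sum of 6 adipocyte markers was 36917 to 38605 and 33653 to 35942, with 0 of 6 called. Their part in the collagen differences was not tested.

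In BAT d0, 1 of 26 collagens tested was higher and 2 lower in siH19 cells, where 0.617% of all genes tested were higher and 1.32% lower. *Col12a1* was at 186, 176 and 153 FPKM with siCtrl and at 233, 219 and 231 with siH19 (log2 difference 0.41, SE 0.074, adjusted p = 0.043). *Col27a1* was at 5.27, 4.98 and 5.37 and at 3.49, 3.91 and 3.55 (-0.42, SE 0.078, adjusted p = 0.047), and *Col23a1* at 2.44, 2.59 and 2.35 and at 1.43, 1.43 and 1.49 (-0.50, SE 0.084, adjusted p = 0.038). Leaving out any 1 of the 6 libraries ended all 3 calls, with adjusted p-values from 0.0736 to 0.161. *Col5a3* had means of 132 and 109 FPKM, a log2 difference of -0.28 (adjusted p = 0.045) under 1.3-fold. *Col4a5*, at means of 20.1 and 25.8, was not called (0.35, SE 0.070, adjusted p = 0.056). In the same libraries 4 of 6 adipocyte markers were lower with siH19, with sums of 2986 to 3252 FPKM in siCtrl and 1510 to 2025 in siH19 cells. Of 6 smooth muscle and pericyte markers 0 were called, with sums of 3262 to 3574 and 3769 to 4161, and of 6 preadipocyte markers 0 were called, with sums of 715 to 794 and 845 to 866. Their part in the collagen differences was not tested.

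In vWAT d0 a single collagen of 27 tested was higher and 0 were lower, where 0.329% of all genes tested were higher and 1.20% lower. That collagen was *Col28a1*, at 26.0, 24.5 and 25.2 FPKM with siCtrl and 38.3, 40.0 and 37.9 with siH19 (log2 difference 0.60, SE 0.049, adjusted p = 0.0061), 1.53-fold. *Col5a2* had means of 369 and 440 FPKM (0.25, adjusted p = 0.034) and *Col5a3* of 51.7 and 40.2 (-0.35, adjusted p = 0.040), both under 1.3-fold on this scale. *Col1a1* and *Col1a2* had means of 1660 and 1889 and of 1615 and 1888 FPKM, with adjusted p-values of 0.090 and 0.051. Here too 4 of 6 adipocyte markers were lower with siH19, with sums of 3965 to 3976 and 2323 to 2625 FPKM. Of 4 smooth muscle and pericyte markers tested 1 was higher, with sums of 1446 to 1661 and 1874 to 2308. Their part in the collagen differences was not tested.

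In vWAT d3, 0 of 27 collagens tested were called by limma, and 3 had an unadjusted p under 0.05. Over all genes tested, 0.00764% were higher and 0.0229% lower. *Col28a1* had means of 43.6 and 49.0 FPKM (log2 difference 0.17, SE 0.040, adjusted p = 0.34). *Col12a1* had means of 31.1 and 28.8, *Col5a2* of 218 and 230 and *Col4a5* of 29.1 and 29.6 FPKM. Of the collagen-processing genes 0 of 25 tested were called.

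The difference between the depots in the effect of siH19 at d3 was tested over 12 libraries. Of 28 collagens tested, 6 had a higher effect in BAT and 1 a lower one, where 7.02% and 3.52% of all genes tested were called. The 7 were those called in BAT d3. *Col4a5* (0.73, SE 0.11, limma adjusted p = 0.0029) and *Col5a2* (0.56, SE 0.089, adjusted p = 0.0044) kept their calls when any 1 of the 12 libraries was left out. The others, *Col12a1* (1.09), *Col11a1* (0.77), *Col5a1* (0.50), *Col28a1* (0.29) and *Col7a1* (-0.99), had adjusted p-values from 0.025 to 0.043 and lost their calls in 6 to 10 of the 12 fits. Each of the 12 libraries ended at least 1 of these calls, and the adjusted p-values of lost calls ran from 0.0506 to 0.0912. After rescaling, 4 collagens had a higher and 2 a lower effect in BAT, with 635 and 757 over all genes instead of 966 and 485.

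Within BAT, the d3 to d0 difference itself was compared between siH19 and siCtrl cells. In siH19 cells 14 of 25 collagens tested fell and 4 rose, where 29.8% of all genes tested fell and 30.8% rose. *Col23a1* reached 1 FPKM at d0 only, so that the filter fixed its direction. *Col3a1* fell 3.68-fold in siH19 and 4.57-fold in siCtrl cells, *Col5a2* 3.77-fold and 5.21-fold and *Col28a1* 7.42-fold and 12.1-fold. *Col5a3* rose 2.73-fold and 2.44-fold. The interaction was called higher for 3 of 26 collagens and lower for 1, where 7.79% and 1.27% of all genes tested were called.

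Those were *Col28a1* (0.59, SE 0.091, adjusted p = 0.0034), *Col5a2* (0.47, SE 0.086, adjusted p = 0.0082), *Col3a1* (0.32, SE 0.087, adjusted p = 0.047) and *Col7a1* (-1.30, SE 0.36, adjusted p = 0.047). The former 2 kept their calls when any 1 library was left out, and each of the latter 2 lost its call in 10 of 12 such fits, with adjusted p-values from 0.0530 to 0.110. *Col7a1* had FPKM of 3.61, 4.26 and 8.95 in BAT siH19 d0, the last of which stands far above the others. After rescaling, 2 were higher and 1 lower, with 524 and 334 over all genes instead of 1058 and 172.

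In vWAT siH19 cells 14 of 28 collagens tested fell and 7 rose from d0 to d3, where 24.5% of all genes tested fell and 28.2% rose. *Col6a6* and *Col8a1* reached 1 FPKM at d0 only, so that the filter fixed their direction. *Col1a1* fell 2.73-fold, *Col1a2* 2.17-fold and *Col5a2* 1.92-fold. *Col12a1*, not called in siCtrl cells, fell from a mean of 48.1 to 28.8 FPKM (log2 difference -0.71, SE 0.12, adjusted p = 0.0019). *Col28a1* and *Col4a2*, which rose in siCtrl cells, had means of 38.7 and 49.0 and of 350 and 449 FPKM and stayed under 1.3-fold. Whether these differed between the siRNAs in vWAT was not tested. *Col24a1* fell (3.50 to 1.77 FPKM), a call lost without vWAT siH19 d0 replicate 1 or 2 or d3 replicate 1 or 3, with adjusted p-values from 0.0581 to 0.0740.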

How the data were processed

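RNA-seq of mouse SVF cells was analysed from 1 deposited table of 24 libraries, 3 in each of 8 groups. The sample titles gave group and replicate number, and in them siKO marks the non-targeting control, and 0 value columns were left unmapped. Per the submitters' processing notes, FastQC 0.10.1, TopHat2 2.0.10, STAR, Cufflinks 2.2.1, DESeq2 and R 3.2.2 were used. The study's methods name Tophat2 and Cufflinks on the Ensembl annotation within QuickNGS. The authors deposited FPKM without counts, and the table names no unit, which was taken from the study's description and from column sums that differ (710794 to 841456). Depth in reads is therefore unknown, and no counting interval or floor is given. A 0 may be a failed estimate, since 100 genes whose median was 5 FPKM or more had a 0 in 1 or more libraries. Collagens among them numbered 0.

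Values were transformed to log2(FPKM + 1) and fitted with limma 3.58.1 (eBayes with trend) in R 4.3.3. Each pair was fitted on its own 6 libraries and each interaction on 12, on all genes that reached 1 FPKM in 3 or more libraries, with Benjamini-Hochberg adjustment over all genes tested. The fits were tested on simulated data. Replicates were compared first (Pearson r 0.988 to 0.991 across genes, at most 0.00550% identical values) and all were kept. Collagens with a group mean of at least 10 FPKM, or called in a comparison, are named with values, and pathway lists are given by counts with up to 6 genes each. The members and lists were chosen with earlier results of these data known. Alternatives were a pseudocount of 0.1, no filter, median-ratio scaling, one fit over all 24 libraries, the replicate number as a block, leaving out each library and no minimum fold change. Collagen loci were read from GENCODE M21 and start windows from RefSeq on GRCm38.p6. Of the members, 43 of 44 had the same coordinates in both annotation and table. Sequences were printed for *Col3a1*, *Col5a1*, *Col5a3* and *Col28a1* only, and 9 members had no RefSeq window. Of 36 symbols on the collagen-processing list 28 were matched. The rest were Mia3 and Loxl2, which are not analysed here, and older synonyms of genes matched under their present symbols. Figures were drawn with matplotlib 3.10.9 in Python 3.11.15.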

Additional observations from a re-analysis of the deposited data

Results flagged for a closer look

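The results here are collagens whose effect differed between 2 depots, days or siRNAs by the limma test of the interaction itself. Values are on the log2(FPKM + 1) scale, with Benjamini-Hochberg adjusted p-values over all genes tested.

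The effect of siH19 at d3 was higher in BAT than in vWAT for *Col12a1* (1.09), *Col11a1* (0.77), *Col4a5* (0.73), *Col5a2* (0.56), *Col5a1* (0.50) and *Col28a1* (0.29) and lower for *Col7a1* (-0.99), with adjusted p-values from 0.0029 to 0.043. Of all genes tested, 7.02% were called higher and 3.52% lower. Only *Col4a5* and *Col5a2* kept their calls when any 1 library was left out, and each of the others lost its call in several such fits. Within BAT, the d3 to d0 difference was higher in siH19 than in siCtrl cells for *Col28a1* (0.59), *Col5a2* (0.47) and *Col3a1* (0.32) and lower for *Col7a1* (-1.30). Here 7.79% of all genes tested were called higher and 1.27% lower. *Col3a1* and *Col7a1* each lost the call in 10 of 12 fits that left out 1 library.

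Of all genes tested, 28.1% had a lower and 24.9% a higher d3 to d0 difference in BAT siCtrl than in vWAT siCtrl cells. That difference was lower in BAT for 18 of 30 collagens tested. The fibrillar ones were *Col3a1* (-2.30), *Col11a1* (-1.70), *Col5a1* (-1.62), *Col5a2* (-1.62), *Col1a1* (-1.57), *Col27a1* (-1.52) and *Col1a2* (-1.48). The type IV chains were *Col4a5* (-1.12), *Col4a2* (-0.56) and *Col4a1* (-0.50). The others were *Col28a1* (-4.04), *Col12a1* (-1.99), *Col14a1* (-1.94), *Col16a1* (-1.25), *Col6a1* (-0.84), *Col8a2* (-0.83), *Col8a1* (-0.74) and *Col6a2* (-0.49). It was higher in BAT for *Col6a5* (1.60), *Col6a6* (1.07), *Col11a2* (0.97), *Col4a6* (0.85), *Col15a1* (0.83), *Col5a3* (0.71) and *Col18a1* (0.37). *Col11a2* lost its call in several fits that left out 1 library. *Col6a5*, *Col6a6* and *Col4a6* passed the filter only through vWAT and were near 0 FPKM in BAT on both days, so that with a pseudocount of 1 their values restate the fall in vWAT and their sign is not a result. With a pseudocount of 0.1, *Col4a6* had 0.34 (adjusted p = 0.33) and *Col8a1* -0.04 (adjusted p = 0.89), and neither was called. By mean FPKM *Col8a1* fell 11.6-fold in BAT and 13.1-fold in vWAT, the opposite order. *Col28a1* and the type IV and type VI chains *Col4a1*, *Col4a2* and *Col6a1* had log2 differences of -3.27, 0.04, -0.15 and -0.23 in BAT and of 0.76, 0.54, 0.40 and 0.61 in vWAT. *Col18a1*, called in no pair of groups, had 0.09 and -0.28. Groups of 3 libraries were too small for a test of single outlying libraries.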

How the results depend on the processing

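No collagen called in a comparison changed sign under any alternative run. Of 168 called values, 165 kept their call with a pseudocount of 0.1, 152 without the filter, 161 after median-ratio scaling, 166 in one fit over all 24 libraries and 160 with the replicate block, and 132 of 132 values from pairs of groups kept theirs without a minimum fold change. Of 1167 values with 1 library left out, 1059 kept their call. These values leave out fits in which the gene no longer passed the filter and so could not keep its call. For *Col6a5* between the depots at d0, only 3 fits were counted. The number of collagens called for siH19 in BAT d0 was 3 and became 0 without the filter and 0 with the replicate block. For siH19 in vWAT d0 it was 1 and became 2 in one fit over all 24 libraries, 3 without a minimum fold change and 0 with the replicate block (*Col28a1*, adjusted p = 0.0646). The depot by siRNA interaction gave 7 and, without the filter, 3. The day by siRNA interaction gave 4 and became 2 without the filter and 8 in one fit over all 24 libraries. The cause of these moves was not tested. With 1 library left out, the counts ran from 0 to 0 (siH19, BAT d0), 4 to 8 (BAT d3), 1 to 2 (vWAT d0), 0 to 0 (vWAT d3), 2 to 8 (depot by siRNA) and 2 to 9 (day by siRNA). For d3 against d0 they ran from 17 to 19 (BAT siCtrl), 19 to 21 (vWAT siCtrl), 17 to 19 (BAT siH19) and 18 to 22 (vWAT siH19), and for depot from 17 to 20 (d0), 16 to 19 (d3) and 23 to 26 (by day). The BAT d3 count was 4 without BAT siCtrl d3 replicate 2, the depot by siRNA count 2 without it, and the day by siRNA count 9 without BAT siH19 d3 replicate 3. A library pair left alone after such an omission borrows its spread from the other group. Whether replicate numbers pair the libraries is not known. Deviations of same-numbered libraries correlated weakly, between -0.150 and 0.0999, and 0 to 6 of 6 libraries per comparison matched their own number best. The 6 of 6 came from BAT against vWAT siCtrl d3, where r ran from 0.030 to 0.081. The block may therefore share only a number. No read depth is known, and collagens near 1 FPKM rest on few reads.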
